A study of Lentinus tigrinus with 27 samples.

Results

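The mature-cap set held 22 of the 15581 gene models of Lentinus tigrinus, strain RLP-9953-sp, a wood-decay mushroom. Genes were chosen by their measured level: a gene entered the set when its mean log2(TPM + 1) over the 3 libraries of the mature cap was at least 3 and was at least 1, a doubling, above the mean of each of the other 8 groups. TPM is the usual measure of transcript level, corrected for gene length and library size. The same libraries that chose the genes supply their mature-cap levels, so those levels are given as a description and without a test. The deposited files do not pair the gene identifiers with names or functions, and 0 of the identifiers matched the reference table at hand, so the genes are named by identifier and carry no function here.

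The study sequenced polyA RNA from 27 libraries in 9 groups of 3, which the series describes as biological replicates, from 1 untreated strain. The groups were the cap of the fruiting body (FB_C, the mature cap), its gills (FB_L, labelled lamellae) and its stipe (FB_S), the cap and stipe of the young fruiting body (YFB_C, YFB_S), the cap and stipe of the stage 2 primordium (P2_C, P2_S), the undivided stage 1 primordium (P1) and vegetative mycelium (VM). Stage 1 primordia were 5 to 20 mm tall with no cap, stage 2 primordia 15 to 25 mm tall with a brown tip, young fruiting bodies stood 30 to 40 mm tall and bore a cap of at most 5 mm, and mature ones were 50 to 70 mm tall with a flat cap. Cultures of the primordium and fruiting-body groups were kept for 21 days in the dark at 30 °C and then fruited at 25 °C with 12 h of light a day. The labels do not say whether the mature caps were sampled free of gills, whether each replicate came from a separate culture, or on which medium the sequenced mycelium grew. In bulk RNA, fewer cells of a type and less RNA per cell cannot be told apart.

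A mushroom cap is built from hyphae, the same tube-like cells as the mycelium, which become compacted and differentiate in the primordium. The cap then expands mainly by enlargement of its cells, and its underside carries the gills, on whose surface the basidia form and shed spores. A cap sample holds the flesh and skin of the cap and, where they are not removed, the gills.

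Libraries held between 10.84 M and 31.82 M reads assigned to genes, and the mature-cap libraries 11.4 M, 15.3 M and 20.0 M. Some mature libraries stood apart from their group over the 10939 genes that reach a mean of 3 in any group. Gill library 3 lay nearer to the young caps (root mean square difference 0.853 to 0.960 on the log2 scale) than to the other gill libraries (1.07 and 1.14). Gill library 2 lay nearest to mature-cap library 2 (0.782), and mature-cap library 2 nearest to it, against 0.949 and 1.16 to the other mature caps. Gill library 2 also lay near gill library 1 (0.811). The labels of gill libraries 2 and 3 and of mature-cap library 2 are therefore in doubt as to the tissue they hold. All were used as given. Every level and comparison of the gills below carries that doubt, and so do the mature-cap levels and the choice of the genes. The main values are also given with some of these libraries left out.

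The mean over the 22 genes was highest in the mature cap, by the choice of the genes, and gills and mycelium followed it. On the log2(TPM + 1) scale that mean was 7.71 ± 0.26 in FB_C, 5.65 ± 0.24 in VM, 4.32 ± 0.20 in P1, 4.91 ± 0.11 in P2_C, 4.18 ± 0.21 in P2_S, 4.87 ± 0.44 in YFB_C, 4.57 ± 0.27 in YFB_S, 5.88 ± 1.39 in FB_L and 4.31 ± 0.14 in FB_S (SD, n = 3 libraries each). The gill libraries spread far more than any other group, with means of 6.07, 7.17 and 4.41 in libraries 1, 2 and 3, against 7.71, 7.97 and 7.44 in the mature caps. The genes held 1.49%, 2.37% and 0.766% of all TPM in the mature caps, against 0.643%, 0.926% and 0.1002% in the gills. In the other groups this share lay between 0.0730% and 0.345%. Single genes carried much of these sums. Without the highest gene of each library, the mature caps held 9760, 11373 and 6198 TPM, against 14862, 23691 and 7661 TPM with it. The gills held 2176, 6501 and 705 TPM without it, against 6429.5, 9264 and 1002 TPM with it. Young cap 1 held 2171 TPM without it, near gill 1.

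**Figure D1:**
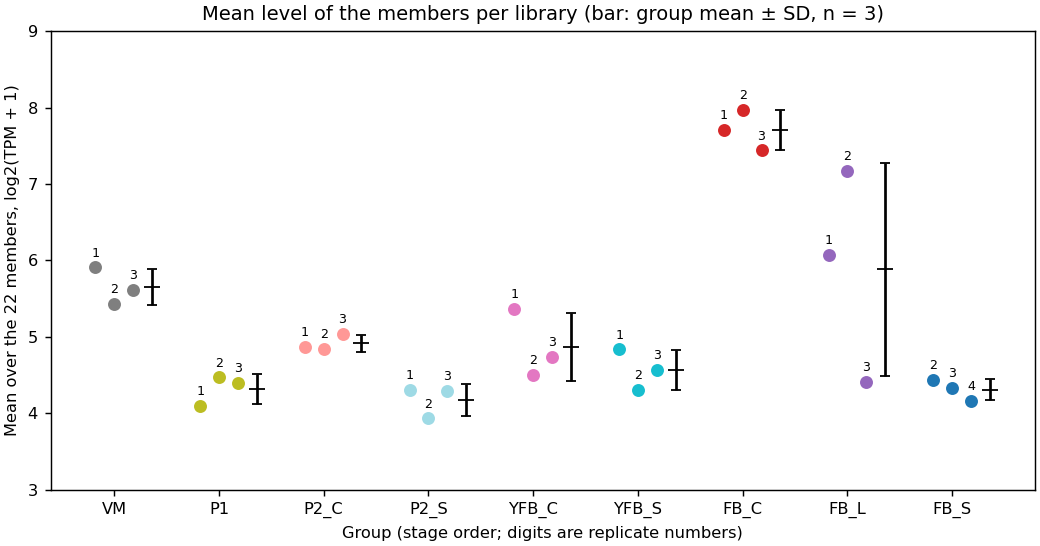
Mean log2(TPM + 1) over the 22 genes in each library (points, with the replicate number), by group in stage order; bars give the group mean ± SD over 3 libraries. The mature caps lie between 7.44 and 7.97, the gill libraries between 4.41 and 7.17, and mycelium is higher than the primordia and stipes.

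Among expressed genes, the median member stood at percentile 93.6 in the mature cap, at 64.4 in the gills, at 60.3 in mycelium and between 35.6 and 51.9 in the other 6 groups. The group next below the mature cap was the gills for 8 genes, mycelium for 8, and P2_C, YFB_C and FB_S for 2 each. Mycelium was among the 2 next groups for 18 of the 22 genes and the gills for 16. The place of the gills depended on the library: without gill library 2 they were next for 4 genes and at percentile 48.8, and without gill library 3 they were next for 16 genes and at percentile 76.6. The young cap, the same organ at the preceding stage, lay further off, with a median difference of 2.62 between mature and young cap on the log2 scale, against 1.57 between mature cap and mycelium and 1.501 between mature cap and gills. The last value was 2.06 without gill library 2 and 0.95 without gill library 3, and without mature-cap library 2 the differences from young cap, mycelium and gills were 2.27, 1.37 and 1.39.

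**Figure D2:**
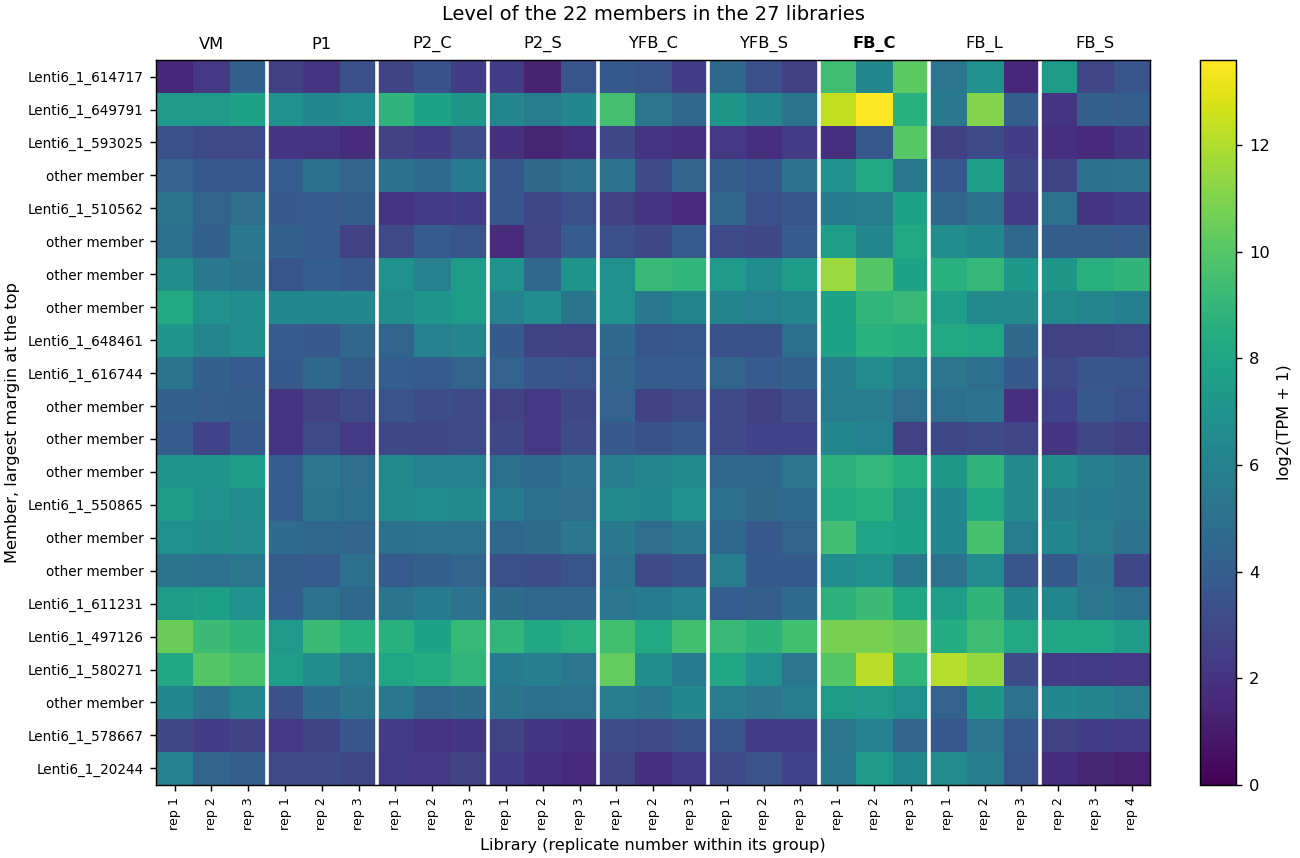
Level of each of the 22 genes (rows, largest margin over the next group at the top) in each of the 27 libraries (columns, by group in stage order); colour gives log2(TPM + 1). The FB_C columns are brightest by choice, FB_L replicate 2 resembles them in many rows, and FB_L replicate 3 is the darkest gill library in 19 of the 22 rows.

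A gene was said to hold in a single mature-cap library when its level there was itself at least 3 and at least 1 above every other group's mean. Of the 22 genes, 16 held in library 1, 18 in library 2 and 7 in library 3. Only 2 genes held in all 3 libraries, 15 held in exactly 2 and 5 in exactly 1, and 12 held in libraries 1 and 2 but not in library 3. Library 3 gave the lowest of the 3 values for 15 of the 22 genes, against 30.1% of all expressed genes. Under the same rule, 9.09% of the mature-cap genes held in all 3 libraries, against 9.88% of the 162 gill genes, 38.2% of the 34 mature-stipe genes, 44.4% of the 9 YFB_C genes, 48.1% of the 52 P2_C genes and 47.1% of the 688 mycelium genes. The share was 11.1% of the 9 P1 genes and 0 of the 1 YFB_S gene, and no P2_S gene met the rule.

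**Figure D3:**
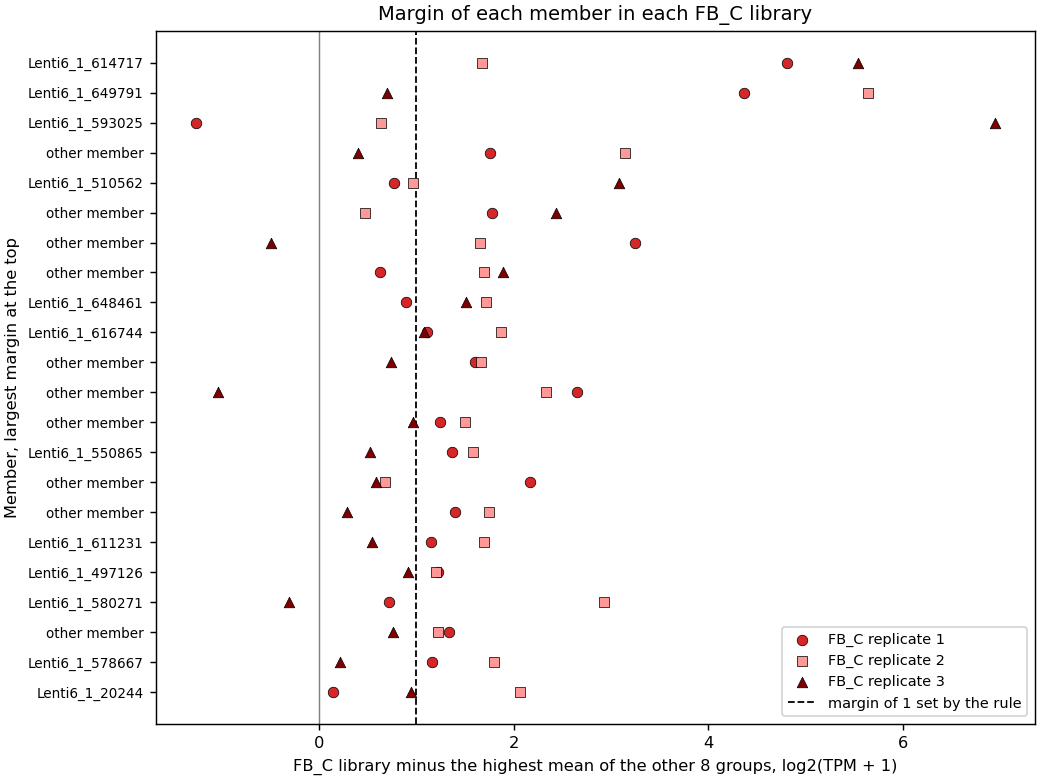
For each gene (rows, largest margin at the top), the level in each mature-cap library minus the highest mean of the other 8 groups, on the log2(TPM + 1) axis; the dashed line is the margin of 1 that the rule asks of the mean. Library 3 lies left of the line for 15 of the 22 genes, and 2 genes have all 3 points right of it.

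The same choice made on 2 mature-cap libraries can be read in the third, which it did not use. Chosen without library 1, 36 genes qualified, of which 12 held in library 1 and 22 were above every other group's mean there. Chosen without library 2, 25 genes qualified, 15 of them among the 22. Of the 25, 11 held in library 2 and 16 were above every other group's mean there. Chosen without library 3, 41 genes qualified, of which 5 held in library 3 and 23 were above every other group's mean there. Their median margin was 0.28 in library 3, against 1.39 in the libraries that chose them. In each case most of the chosen genes did not keep the margin in the library left out. Leaving gill library 3 out of the whole choice left 9 genes, all among the 22, while leaving out gill library 2 gave 31.

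The 2 genes that held in every mature-cap library differed in level and spread. Lenti6_1_614717 had 679, 76.3 and 1129 TPM in the mature caps, against 39.7, 116 and 1.97 TPM in the gills and 166, 6.28 and 10.8 TPM in the stipes numbered 2, 3 and 4. It lay between 1.51 and 23.0 TPM in the other 18 libraries. Mature-cap library 2 is thus below 1 gill and 1 stipe library, and the mature-cap levels overlap those of both tissues. Lenti6_1_616744 was lower and tighter, with 55.1, 94.3 and 53.9 TPM in the mature caps, 39.0, 29.1 and 13.6 TPM in the gills and 6.88 to 38.2 TPM in the other 21 libraries. All 3 of its mature-cap libraries were above all 24 others, which was so for 2 of the 22 genes, the other being Lenti6_1_510562, which held in library 3 alone.

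The gene with the highest mature-cap level varied strongly with the library. Lenti6_1_649791 had 5102, 12318 and 400.5 TPM in the mature caps, 44.4, 2128 and 16.1 TPM in the gills and 3.14, 16.98 and 16.2 TPM in the stipes numbered 2, 3 and 4. Young cap 1 had 762 TPM, against 40.2 and 24.4 TPM in the other young caps. Mature-cap library 3 thus lay below that young cap and below a stage 2 cap with 448 TPM. This gene alone rested on 28601, 93761 and 3880 reads in the mature caps.

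Lenti6_1_497126, the other gene of the 2 highest, had the narrowest spread in the mature caps. It had 1809, 1781 and 1463 TPM there, against 336, 669 and 297 TPM in the gills and 1499.8, 647 and 481 TPM in mycelium. The single mycelium library 1 exceeded mature-cap library 3, and the remaining 23 libraries lay between 163 and 718 TPM. It was also abundant outside the mature cap, with no library below 163 TPM.

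Lenti6_1_593025 had the widest spread and owed its place to a single library. It had 2.57, 12.3 and 1054 TPM in the mature caps, against 1.68 to 8.82 TPM in all 24 other libraries. Library 3 held 25554 reads of it, against 36 reads in library 1 and 234 in library 2. Without mature-cap library 3, its margin over the next group was -0.32 on the log2 scale, so it would not have been highest in the mature cap.

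The rule's threshold separated neighbours by very little. Just inside it, Lenti6_1_20244 averaged 6.34 on the log2 scale in the mature cap against 5.29 in the gills, a margin of 1.05, and Lenti6_1_578667 averaged 5.29 against 4.23 in the gills, a margin of 1.06. Just outside, Lenti6_1_575251 averaged 5.75 in the mature cap against 4.75 in mycelium (0.998), and Lenti6_1_587206 averaged 3.20 against 2.20 in the mature stipe (0.997). In all, 9 of the 22 genes had margins between 1 and 1.2, and 343 more genes were highest in the mature cap with a margin under 1.

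**Figure D4:**
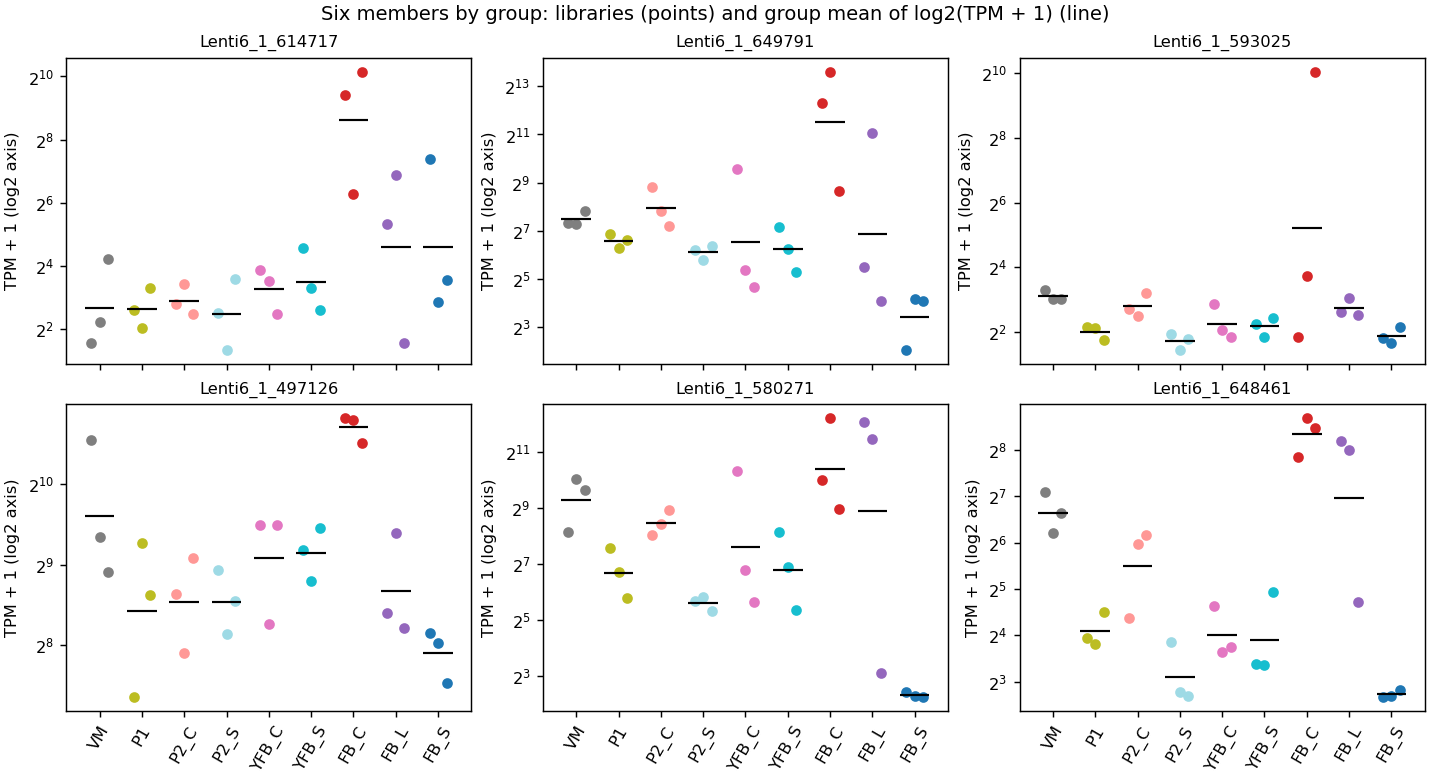
TPM + 1 in each library (points) and the group mean of log2(TPM + 1) (line) for 6 of the genes on a log2 axis, groups in stage order. Lenti6_1_497126 has tight mature-cap points, Lenti6_1_593025 has 1 high point, and for Lenti6_1_580271 and Lenti6_1_648461 gill libraries 1 and 2 lie among the mature caps with gill library 3 far below.

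Sequencing flowcells, as the labels give them, were not balanced over the groups. The mature caps sat on 3 flowcells, each with libraries of other groups, and shared none with YFB_C, YFB_S or FB_S. The differences within a flowcell use the values that chose the genes, so their direction was largely fixed by the choice and is given as a description. There, 22 of 22 genes were higher in mature-cap library 2 than in each of mycelium libraries 1 and 2, with median differences of 1.57 and 2.09, and 20 of 22 were higher in mature-cap library 3 than in mycelium library 3. Against the gills, 21 genes were higher in mature-cap library 2 than in gill library 1 (median 1.47), but 14 in mature-cap library 1 than in gill library 2 (median 0.22). Against primordia on the same flowcell, 20 or 21 genes were higher in the mature cap in every pairing, with medians of 1.92 to 3.54. Mature and young cap have no within-flowcell value, so flowcell and group cannot be told apart there.

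The level of the 22 genes in the gills depended on the gill library. Gill library 2 was the highest gill for 16 of the 22 genes, against 26.9% of all expressed genes, and exceeded the lowest mature cap in 17 and the mature-cap mean in 8. Gill library 3 was the lowest gill for 19 genes, against 32.7% of all expressed genes, and exceeded the lowest mature cap in 2. For 4 of the 22 genes all mature caps lay above all gills, compared with 16 for mycelium and 17 to 20 for each other group. In the gills the median SD over the 22 genes was 1.35 on the log2 scale, against 0.41 over all expressed genes. In the mature caps it was 0.84 against 0.41. The rule asks for a gill mean at least 1 below the mature cap, so a low gill library helped genes into the set. Without gill library 3, 9 of the 22 genes met the rule. The place of gill library 3 and the gill spread were thus partly set by the choice, unlike the values over all expressed genes.

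Comparisons between the other 8 groups contrast no mature-cap value, although the rule caps every one of those groups at least 1 below FB_C, and the FB_C counts enter the scaling and the estimate of the spread. Fitted without the FB_C libraries, the count below was 8 in place of 7 for FB_L against YFB_C. It was 2 in place of 1 for P2_C against P2_S and 8 in place of 6 for P1 against VM. No other count moved. Of all genes, 1030 in place of 856 were called higher in FB_L than in YFB_C. Called lower in P1 than in VM were 1200 in place of 1097. All 22 genes passed the filter on low counts. They were tested with edgeR's quasi-likelihood test fitted to all 27 libraries and all genes that passed, and a gene was called at a Benjamini-Hochberg adjusted p under 0.05 and a change of at least 2-fold. Of the 22 genes, 12 were called in at least 1 of 6 such comparisons and 10 in none, where 42.7% of all genes were called in at least 1. The fit gives all groups 1 estimate of the spread per gene, although the gill libraries spread more than the rest.

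Gills were compared with the cap of the stage before, so tissue and stage both differ and cannot be told apart. Among the 22 genes, 7 were called and all were higher in FB_L than in YFB_C, where 8.94% of all genes were called (6.31% higher and 2.63% lower). The median log2 fold change was 1.55 over the 22 genes and 0.02 over all genes. Lenti6_1_648461 had 291, 254 and 25.3 TPM in the gills, against 23.6, 11.4 and 12.4 TPM in the young caps, and the groups did not overlap, though gill 3 was barely above young cap 1. Its log2 fold change was 3.70 (SE 0.69, edgeR adjusted p = 0.00162). Lenti6_1_20244 had 91.9, 55.8 and 10.4 TPM in the gills, against 6.07, 2.72 and 4.41 TPM in the young caps, again without overlap (log2 fold change 3.68, SE 0.62, edgeR adjusted p = 0.000903). Without gill library 2 or without young-cap library 2 the count was 4, and without gill library 3 it was 12. Over all genes, 856 of 13569 were called higher in FB_L in the main fit. That number was 613 of 13636 without gill library 2 and 1279 of 13636 without gill library 3. An edgeR fit to these 6 libraries alone called 0 of the 22 genes, against 7 in the fit to all libraries, and a fit that included the flowcell called 3. The only flowcell with both groups held gill 3 and young cap 1, where 6 of the 7 genes differed in the called direction, with a median difference over the 22 genes of -0.40.

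Gills were also compared with the stipe of the same mature stage. Here 10 of the 22 genes were called, all higher in FB_L than in FB_S, where 15.8% of all genes were called (9.45% higher and 6.35% lower). The median log2 fold change was 1.15 over the 22 genes and 0.01 over all genes. Lenti6_1_580271 changed most, with 4254, 2763 and 7.65 TPM in the gills against 4.38, 3.88 and 3.80 TPM in the stipes numbered 2, 3 and 4. Gill 3 was close to the stipes, while gills 1 and 2 were above 2 of the 3 mature caps, which had 1010.5, 4670 and 496 TPM. The log2 fold change between gills and stipes was 8.80 (SE 1.65, edgeR adjusted p = 0.000685), and with flowcell as a covariate it was no longer called. Lenti6_1_648461 had 5.38, 5.40 and 6.10 TPM in the stipes, all below the gill values above (log2 fold change 4.68, SE 0.72, edgeR adjusted p = 9.98e-05). Lenti6_1_20244 had 2.48, 1.62 and 1.41 TPM in the stipes, likewise below all gills (log2 fold change 4.44, SE 0.66, edgeR adjusted p = 6.79e-05). These last 2 calls were kept under all 14 alternatives run. The count over the 22 genes was 4 without gill library 2, 12 without gill library 3, 3 in a fit to these 6 libraries alone and 2 with flowcell as a covariate. Gills and stipes shared no flowcell.

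**Figure D5:**
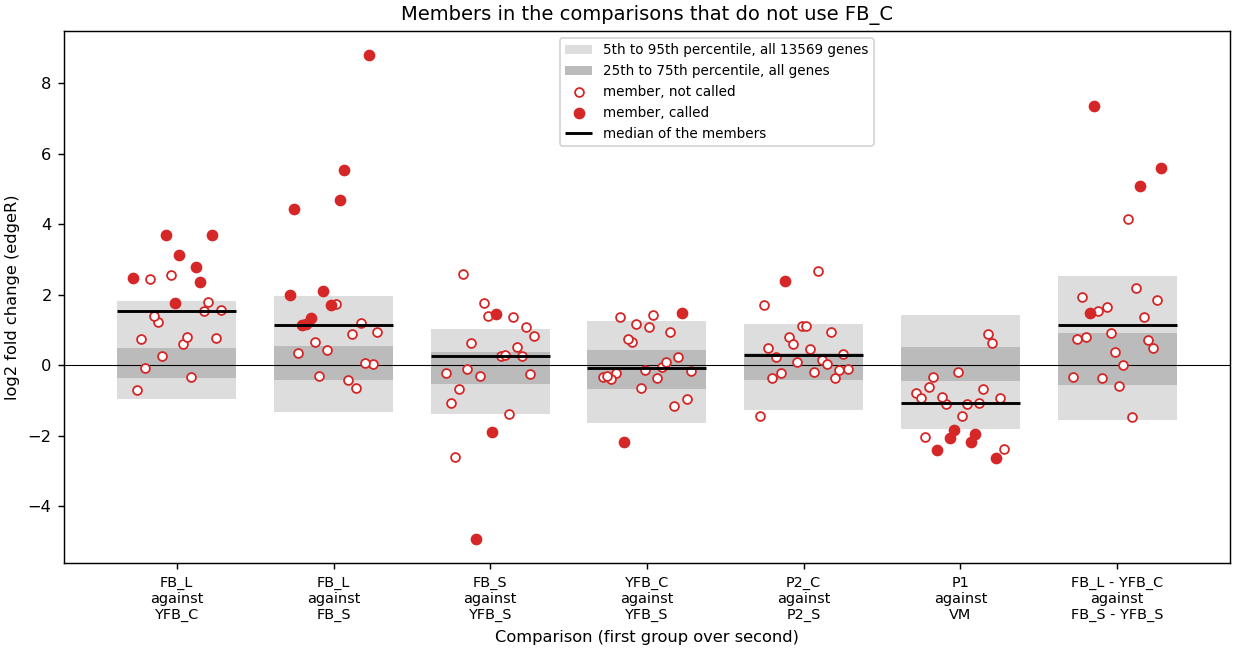
Log2 fold change of each of the 22 genes (circles, filled where called) in 7 comparisons that leave out the mature cap, with the group named first over the group named second; black lines are medians of the 22 genes, and grey boxes give the inner range of all tested genes at the percentiles in the key. The genes lie mostly above 0 in both gill comparisons and mostly below 0 in P1 against VM, and around 0 in the 3 cap and stipe comparisons.

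The mature stipe was compared with the young stipe. In the mature stipe 1 of the 22 genes was higher than in the young stipe and 2 were lower, where 8.93% of all genes were called (3.04% higher and 5.9% lower). Lenti6_1_611231 had 73.1, 39.4 and 29.8 TPM in the mature stipes numbered 2, 3 and 4, against 15.6, 16.3 and 25.9 TPM in the young stipes, without overlap (log2 fold change 1.46, SE 0.48, edgeR adjusted p = 0.0448). Lenti6_1_580271 fell in the same comparison, to the stipe values above, against 279, 118 and 39.4 TPM in the young stipes (log2 fold change -4.94, SE 1.39, edgeR adjusted p = 0.0225). Lenti6_1_20244 also fell, to the mature-stipe values above, against 7.92, 10.1 and 5.62 TPM in the young stipes (log2 fold change -1.91, SE 0.62, edgeR adjusted p = 0.0427). None of the 3 calls was kept throughout: the count was 0 when the flowcell entered the fit, 0 without young-stipe library 1, 1 without young-stipe library 2, and 0 without mature-stipe library 2 or 3. On the 1 flowcell with both groups, all 3 genes moved in the called direction.

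Cap and stipe were compared at 2 earlier stages, with 2 of the 22 genes called in the young fruiting body and 1 in the stage 2 primordium. These counts depended on the fit: edgeR fits to only the libraries compared called 4 and 5. In the young fruiting body, 1 gene was higher in YFB_C than in YFB_S and 1 was lower, where 18.4% of all genes were called (6.85% higher and 11.6% lower). Lenti6_1_550865 had 88.4, 76.6 and 114 TPM in the young caps, against 28.8, 25.1 and 26.2 TPM in the young stipes, with wide separation (log2 fold change 1.49, SE 0.39, edgeR adjusted p = 0.0078). That call was kept under all 14 alternatives. Lenti6_1_510562 ran the other way, with 5.37, 3.403 and 2.32 TPM in the young caps against 21.2, 9.10 and 10.6 TPM in the young stipes (log2 fold change -2.18, SE 0.76, edgeR adjusted p = 0.0359). The second call was lost, leaving a count of 1, without young-cap library 2 or 3 or without young-stipe library 1 or 3. Lenti6_1_510562 was the member with 46.7, 53.4 and 237 TPM in the mature caps, so its mature-cap level is above a young cap level that was lower than that of the young stipe. In the stage 2 primordium, 1 of the 22 genes was called, higher in P2_C than in P2_S, where 7.78% of all genes were called (3.34% higher and 4.44% lower). Lenti6_1_648461 had 19.6, 61.6 and 70.8 TPM in the primordium caps, against 13.5, 5.79 and 5.44 TPM in the primordium stipes (log2 fold change 2.39, SE 0.65, edgeR adjusted p = 0.022). This call was lost, leaving a count of 0, without cap library 2 or 3, without stipe library 2 or 3 and with flowcell as a covariate (edgeR adjusted p = 0.063), while the log2 fold change stayed between 2.04 and 2.83 over all 14 alternatives.

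The first primordium was compared with vegetative mycelium, and the genes were mostly lower in the primordium. The labels give no culture time, temperature or light for the mycelium, so stage and culture conditions cannot be told apart. In P1 6 of the 22 genes were called, all lower than in VM, where 15% of all genes were called (6.91% higher and 8.08% lower). The log2 fold change was negative for 20 of the 22 genes, with a median of -1.08 against 0.03 over all genes. Lenti6_1_611231 had 15.7, 32.0 and 22.6 TPM in P1, against 171, 214 and 127 TPM in mycelium, with every mycelium library well above every primordium library (log2 fold change -2.65, SE 0.49, edgeR adjusted p = 0.000685). Lenti6_1_648461 had 14.3, 13.1 and 21.6 TPM in P1, against 136, 72.8 and 99.3 TPM in mycelium (log2 fold change -2.40, SE 0.65, edgeR adjusted p = 0.0119). Lenti6_1_550865 had 15.6, 37.4 and 29.3 TPM in P1, against 178, 127 and 100.2 TPM in mycelium (log2 fold change -2.08, SE 0.40, edgeR adjusted p = 0.000838). The calls of Lenti6_1_611231 and Lenti6_1_550865 were kept under all 14 alternatives, while that of Lenti6_1_648461 was lost with flowcell as a covariate and without P1 library 2. Without P1 library 2, 3 of the 22 genes were called. On the 1 flowcell with both groups, all 6 genes were lower in P1 library 2 than in VM library 3.

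The comparisons of P1 with VM and of FB_L with YFB_C share no library. They do share flowcells and come from 1 fit with 1 estimate of the spread per gene, so they are not independent. Called in both, lower in P1 and higher in FB_L, were 5 genes, which is 5 of the 6 called in the first and 5 of the 7 called in the second, where 1.68% of all genes were called in both (20.8% and 26.6% of those called in each). Without gill library 2, 3 of the 22 genes were called in both, and without gill library 3, 6 were. Over all genes the number moved too, from 228 of 13569 to 165 of 13636 without gill library 2. Without gill library 3 it was 382 of 13636. With flowcell as a covariate, each of the 5 genes lost the call in P1 against VM or in FB_L against YFB_C. An edgeR fit to only the libraries compared called 0 of the 22 genes for FB_L against YFB_C, so none was called in both there. Of the named genes, the 5 include Lenti6_1_648461, Lenti6_1_611231 and Lenti6_1_20244. Lenti6_1_611231 had 431, 630 and 284 TPM in the mature caps, 197, 479.7 and 76.3 TPM in the gills, 171, 214 and 127 TPM in mycelium and 15.6 to 73.1 TPM in every other library. Its levels were thus high in mycelium, lower through the primordium and young stages, and higher again in the mature cap and in gills 1 and 2. Gill 3, at 76.3 TPM, was close to the highest of those other libraries, at 73.1 TPM. Lenti6_1_550865, called in P1 against VM, was not 1 of the 5. Its gills overlapped the young caps and were not called against them (log2 fold change 0.75, edgeR adjusted p = 0.213). It had 340, 395 and 189 TPM in the mature caps and 178, 127 and 100.2 TPM in mycelium. The gills had 78.9, 283 and 82.9 TPM, against 88.4, 76.6 and 114 TPM in the young caps, and all libraries elsewhere lay between 15.6 and 114 TPM.

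The gill minus young-cap difference less the mature-stipe minus young-stipe difference was tested as 1 term. Gills and young cap differ in tissue as well as in stage, and the term cannot tell these apart. For 4 of the 22 genes this term was called, positive each time, where 18.1% of all genes were called (10.5% positive and 7.68% negative). The term was 7.37 on the log2 scale for Lenti6_1_580271, 5.59 for Lenti6_1_20244, 5.08 for Lenti6_1_648461 and 1.47 for Lenti6_1_616744. It had a median of 1.14 over the 22 genes and 0.11 over all genes. Without gill library 3, 8 of the 22 genes were called.

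Over the 24 libraries outside the mature cap, the 22 genes tended to vary together. The mean correlation of log2(TPM + 1) over the 231 pairs was 0.41 and the median 0.43, with 82 pairs above 0.5 and 13 below 0, against a mean of 0.10 over all pairs of expressed genes. The mean was 0.29 without gill library 2 and 0.42 without gill library 3. These libraries share tissues, flowcells and depth, so the value is a description. The rule also used the group means of these libraries to choose the 22 genes, whereas the expressed genes were not chosen on such a profile. The genes had a median length of 1452.5 bases, between 240 and 3105, against 1392 bases for expressed genes. Each had at least 99.6% uniquely mapped reads, so reads shared with near-identical copies make up little of the counts.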

How the data were processed

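Libraries of polyA RNA were prepared with the TruSeq RNA v2 kit of Illumina. The labels' protocols state no strand setting, so reads of overlapping antisense genes cannot be told apart. The submitters' processing notes list edgeR 3.4.2, limma 3.18.13 and R 3.0.2. The names of the deposited tables per library carry CLC RNA-Seq, a tool for mapping and counting reads, while the build and the version of that tool are not given here by any source used. The authors deposited, per the file headers, a table for each library with gene length, TPM and 2 read counts a gene, of all reads and of unique ones. TPM recomputed from count and length differed by at most 3.5e-10. A further deposited table holds log2 RPKM for 13805 genes, scaled by the authors, and served as an alternative.

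The genes and all lists were chosen with earlier results of these data known. Lists by function could not be made, because no identifier matched a name. The rule used TPM with a pseudocount of 1. Tests used total counts, with filterByExpr at a minimum count of 10 (13569 genes kept, 2012 removed), TMM scaling and 1 quasi-likelihood model of 9 group means (edgeR 4.0.16, R 4.3.3), 18 residual degrees of freedom and a common coefficient of biological variation of 0.343. Tests are two-sided, the threshold is an adjusted p of 0.05 with at least 2-fold, and each SE is the fold change divided by the root of F. The script was tested on simulated data. Where replicates are not separate cultures, p-values measure only the spread between these samples. Intervals are not given, and read numbers speak for counting error only.

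Named are the 2 genes highest in FB_C, the 2 with the largest margin among those holding in all 3 libraries, the 2 just inside and 2 just outside the margin, the widest and the narrowest in FB_C, and up to 2 highest and 2 lowest called genes per comparison whose groups do not overlap with a mean of at least 10 CPM in the higher group. Members so named are also described in other comparisons.

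Replicate numbers were checked by the correlation of same-numbered libraries' deviations from their group means over 11274 genes. Same-numbered libraries of YFB_C and YFB_S correlated (0.36, 0.27 and 0.40), and a block changed no call there. Libraries 1 shared a flowcell and so did libraries 3, while libraries 2 did not. Common origin and flowcell thus cannot be told apart for libraries 1 and 3. Elsewhere a correlation was below 0.1 or only 2 numbers were shared. Alternatives were DESeq2 1.42.0 and its size factors, no filter, unique reads, a replicate block, flowcell as a covariate, only the libraries compared, each library left out, and, for the rule, another pseudocount, scaling, median or margin. The fit without FB_C libraries, the choices without 2 libraries, and the gill levels, correlations and overlap without single libraries were added after seeing the data.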

Additional observations from a re-analysis of the deposited data

Results flagged for a closer look

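For 4 of the 22 genes the FB_L minus YFB_C difference was unlike the FB_S minus YFB_S difference. This was called by edgeR's test of the difference of these differences, with Benjamini-Hochberg adjustment over all genes. FB_L and YFB_C differ in tissue as well as in stage, and the term cannot tell these apart. For this term 18.1% of all genes were called, so a count of 4 of 22 is close to that share. For Lenti6_1_580271 the difference was 7.37 on the log2 scale (SE 1.85, adjusted p = 0.00969), and it was lost with flowcell as a covariate (adjusted p = 0.2265, the highest over its 20 alternatives, the lowest being 0.000205). For Lenti6_1_20244 it was 5.59 (SE 0.87, adjusted p = 0.000504) and was called under all 20 alternatives. For Lenti6_1_648461 it was 5.08 (SE 0.93, adjusted p = 0.0015) and was likewise called under all 20. For Lenti6_1_616744 it was 1.47 (SE 0.49, adjusted p = 0.0377), and it was lost under 12 of the 20, among them the fits without either gill library 1 or 2.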

How the results depend on the processing

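The number of genes was 22, and 23 with a pseudocount of 0.1, 28 with TMM-scaled TPM, 23 with unique reads, 25 with group medians (15 of them shared) and 3 with a margin of at least 2. The margin was kept by 21 of the 22 in the authors' deposited table of log2 RPKM. Leaving out single libraries gave 9 to 41. Without FB_C library 2 and FB_L library 1 together, and without FB_L libraries 2 and 3 together, both chosen after seeing the data, 22 and 24 genes qualified, of which 12 and 16 were shared. With a margin of at least 2, 2, 1 and 2 genes held in FB_C libraries 1, 2 and 3 and 0 in all 3. With TMM-scaled TPM, 12 held in library 3 and 6 in all 3. The margin of Lenti6_1_593025 reversed to -0.32 without FB_C replicate 3 (range -0.32 to 3.79 over single libraries left out), and that of Lenti6_1_580271 to -1.45 with medians and -1.37 without FB_L replicate 3 (range -1.37 to 1.82). The cause was not tested.

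With flowcell as a covariate, the calls numbered 3 for FB_L against YFB_C, 2 for FB_L against FB_S, 0 for FB_S against YFB_S, 0 for P2_C against P2_S and 2 for the difference of differences. With only the libraries compared, they numbered 0, 3 and 8 for the first 3 comparisons, 4 for YFB_C against YFB_S, 5 for P2_C against P2_S and 10 for P1 against VM. DESeq2 called 6 for FB_S against YFB_S and 2 for P2_C against P2_S. The fit without FB_C, chosen after seeing the data, called 2 for P2_C against P2_S. For most alternative fits, here, above and with the replicate block, the number of all genes called is not given. A changed count there cannot be told apart from a fit that calls more or fewer of all genes. With single libraries left out, the counts ran over 4 to 12, 4 to 12, 0 to 3, 1 to 2, 0 to 1, 3 to 5 and 3 to 8 in the order FB_L against YFB_C, FB_L against FB_S, FB_S against YFB_S, YFB_C against YFB_S, P2_C against P2_S, P1 against VM and the difference of differences.

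The replicate block gave 4 calls for FB_L against FB_S and 0 for FB_S against YFB_S, where only 2 numbers are shared, and 7, 2, 1, 5 and 3 for FB_L against YFB_C, YFB_C against YFB_S, P2_C against P2_S, P1 against VM and the difference of differences. Of 180 fold changes of named called genes with 1 library left out, 128 kept the call, 52 lost it and 0 turned. Called genes that were not named are outside this count. A gene among them had log2 fold changes from -0.149 to 2.62 for FB_L against FB_S over its 14 alternatives. Of 324 margins of the named genes with 1 library left out, 78 changed, and 20, over 10 genes, were under the 1 that the rule asks. Depth was at least 10.84 M reads per library.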
